A study of Mus musculus with 4 samples.

Results

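The genes described here were 7 Fc receptor genes of the mouse, Fcgr1, Fcgr2b, Fcgr3, Fcgr4, Fcer1g, Fcrls and Fcgrt, taken by symbol from the 32285 genes counted. All 7 were found, each under 1 gene identifier. They were followed through brain immune cells of wild-type C57Bl/6 mice, 3 days after cardiac arrest (CA) brought on with potassium chloride and followed by resuscitation, or 3 days after sham surgery without the arrest. The groups were aged CA, aged sham, young CA and young sham, with aged mice of 18 to 20 months and young mice of 3 to 6 months, and no allele or agent besides these is labelled in any group. The brains were perfused and dissociated mechanically, CD45+ cells (CD45, encoded by Ptprc, marks leukocytes) were taken by flow cytometry, and their transcripts were counted cell by cell from 3′ ends in droplets. Each group was 1 library pooled from 3 mice that could not be told apart, so no value has a spread between animals, no difference could be tested, and every interval below is 95% and covers counting error only.

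Fc receptors bind the constant part of antibodies. FcγRI, III and IV (Fcgr1, Fcgr3, Fcgr4) drive uptake and activation through the immunoreceptor motif of the shared Fc receptor γ chain (Fcer1g), while FcγRIIB (Fcgr2b) carries an inhibitory motif and restrains the same cell. Fcgrt encodes the heavy chain of the neonatal Fc receptor, which returns immunoglobulin G (IgG) and albumin from endosomes to the surface, and Fcrls encodes an Fc receptor-like protein with a scavenger receptor domain, best known as a marker of resting microglia, the resident macrophages of the brain.

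Of the 7 genes, 4 lie close together. On the GRCm38 assembly, the one that mm10 names, Fcgr2b (ENSMUSG00000026656, chr1:170958617-170976547, minus strand), Fcgr4 (ENSMUSG00000059089, chr1:171018920-171029761, plus strand), Fcgr3 (ENSMUSG00000059498, chr1:171051174-171064935, minus strand) and Fcer1g (ENSMUSG00000058715, chr1:171229572-171234365, minus strand) span 276 kb of chromosome 1. Fcrls (ENSMUSG00000015852, chr3:87250758-87263738) and Fcgr1 (ENSMUSG00000015947, chr3:96282909-96293969) lie on chromosome 3 and Fcgrt (ENSMUSG00000003420, chr7:45092990-45103851) on chromosome 7, all 3 on the minus strand. The 4 IgG receptors are related in sequence, and 33 of 1467 runs of 50 bases in the last 500 bases of Fcgr2b transcripts were also found in Fcgr3, while the other members shared 0 such runs with any other gene. Antisense genes overlap Fcgr2b (Gm38204) and Fcgrt (Gm45669) on the opposite strand.

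The promoters of Fcgr1 and Fcgr4 are shown because these 2 members had the highest ratios inside to outside the interferon-response state of microglia in aged and young CA; Fcer1g, with no match below, was also higher inside it, by less. RefSeq promoter windows of 250 bases before to 50 bases after the transcription start were available for 7 of 7 members on GRCm38.p6, and 3 motifs were searched on both strands in them and in all 32851 such windows. The GAS core TTCNNNGAA, known from promoters of genes induced by interferon γ, occurred in 8.3% of windows, the half-site pair of the interferon-stimulated response element (GAAA followed by any 2 bases and GAAA) in 3.44%, and GAGGAAGT, a core bound by the myeloid factor PU.1, in 3.2%. Fcgr1 held a GAS core 109 bases before its start, and Fcgr4 held the half-site pair 73 bases and the reverse complement of the PU.1 core 24 bases before its start. No match to the 3 motifs was found in the windows of the other 5 members. The stretches from 150 to 11 bases before each start, 5′ to 3′ on the strand of the gene, are given with the matches in capitals (Fcgr1, chr3:96293980-96294119, minus strand; Fcgr4, chr1:171018776-171018915, plus strand).
Fcgr1: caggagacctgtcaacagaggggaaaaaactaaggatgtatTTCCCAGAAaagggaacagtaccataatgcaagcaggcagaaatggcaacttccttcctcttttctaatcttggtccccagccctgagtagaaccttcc
Fcgr4: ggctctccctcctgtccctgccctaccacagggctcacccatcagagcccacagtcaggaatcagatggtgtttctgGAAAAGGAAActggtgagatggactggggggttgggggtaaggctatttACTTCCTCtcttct

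Cells kept numbered 5594 in aged CA, 7031 in aged sham, 9242 in young CA and 8027 in young sham. Cells were assigned to classes by marker genes, which gave 4514, 4700, 8302 and 7395 microglia in that order and 22 to 427 cells in each other class and library described. Ptprc, the gene of the sorted protein, stood at 404 to 504 CPM in microglia (CPM, UMIs of a gene per 1000000 UMIs of the class, a UMI or unique molecular identifier being 1 counted transcript). The aged sham library stood apart from the others, with a median of 3261 UMIs per kept cell against 5893 to 10326.5, with 427 cells gated as neurons against 100 to 163, and with 96 erythroid cells against 0. The neuron excess depended on the gate. A stricter gate left cells with many microglial markers out of the other classes. It gave 108 neurons in aged sham, 135 in aged CA, 73 in young CA and 33 in young sham, and 34 erythroid cells in aged sham. The aged sham library is the control of aged CA and the aged member of the age comparison in sham, and no other library could stand in its place. Libraries shared 15 to 32 cell barcodes in pairs. Malat1, a nuclear transcript, stood in microglia at 16627 and 13456 CPM in aged and young CA against 25767 and 26479 CPM in aged and young sham, and its part in the results was not tested.

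The first comparison asked how microglia differed after CA. Fcgr4 was the member with the widest change, Fcgr1, Fcgr2b, Fcgr3, Fcer1g and Fcgrt were higher after CA by less than 2-fold at both ages, and Fcrls was lower. Among 7 members, 1 was at least 2-fold higher and 1 at least 2-fold lower in aged CA over aged sham, where 6.1% and 7.38% of all 9174 genes tested were. In young CA over young sham, 1 was at least 2-fold higher and 0 at least 2-fold lower, against 5.58% and 2.5% of 9130 genes. These counts are a description of libraries, 1 a group.

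**Figure D1:**
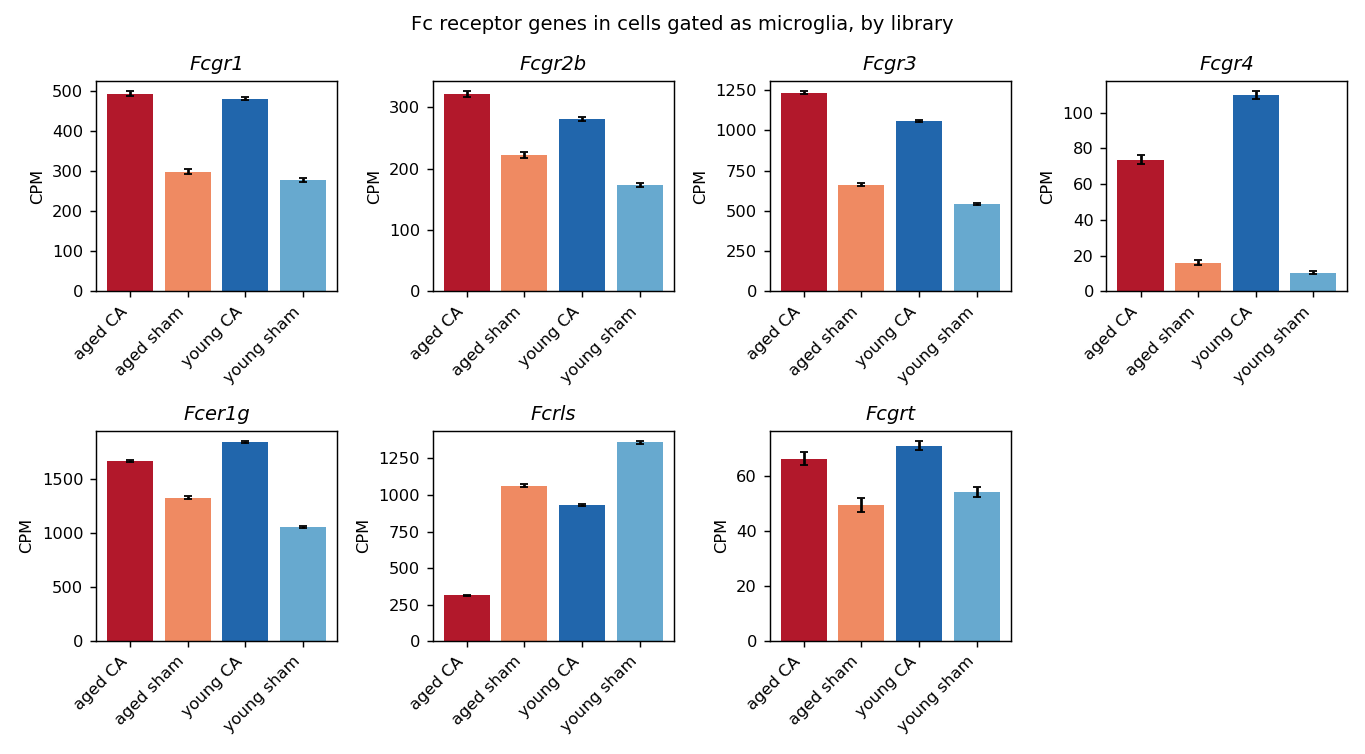
Levels of the 7 Fc receptor genes in cells gated as microglia, in CPM from an axis start of 0, with 1 bar per library and exact Poisson 95% intervals that cover counting error only. The CA bars of Fcgr4 reach 73.6 CPM (aged) and 109.8 CPM (young) against 16.0 CPM (aged) and 10.3 CPM (young) in sham, while Fcrls is lowest in aged CA at 313 CPM.

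Fcgr4, an activating receptor of monocytes and neutrophils that binds a subset of IgG classes, stood at 73.6 CPM (interval 71.3 to 76.0) in aged CA, 16.0 CPM (14.6 to 17.5) in aged sham, 109.8 CPM (108 to 112) in young CA and 10.3 CPM (9.53 to 11.2) in young sham microglia. Both CA libraries were above both sham libraries. The ratio of CA to sham was 4.6 (4.18 to 5.07) in aged and 10.6 (9.76 to 11.6) in young, and the aged ratio was 0.434 (0.382 to 0.492) of the young one, a difference that could not be tested. Monocytes carry Fcgr4, and all 10 markers of the monocyte list had UMIs in cells gated as microglia in every library, with a summed level of 74.3 and 221 CPM in aged and young CA against 26.6 and 18.7 CPM in aged and young sham. Most of that sum in the CA libraries was Fn1, at 50.9 CPM in aged CA and 176 CPM in young CA. Microglia with no UMI of that list numbered 3625 in aged CA, 4219 in aged sham, 5520 in young CA and 6919 in young sham. They were 80.3%, 89.8%, 66.5% and 93.6% of the microglia of those libraries, an unequal share. In that order Fcgr4 stood in them at 61.3, 14.3, 77.3 and 9.31 CPM. The ratios of CA to sham were 4.28 in aged and 8.31 in young. The part of monocyte RNA in the Fcgr4 levels was not tested.

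Fcgr1 encodes the high-affinity activating receptor, which can hold single IgG molecules. Its level was 494 CPM in aged CA, 298 CPM in aged sham, 481 CPM in young CA and 277 CPM in young sham. The ratio of CA to sham was 1.66 (1.62 to 1.70) in aged and 1.73 (1.70 to 1.77) in young. Fcgr3, the low-affinity activating receptor for immune complexes, stood at 1235 CPM in aged CA, 663 CPM in aged sham, 1056 CPM in young CA and 546 CPM in young sham. Its ratios lay just under the 2-fold line, at 1.86 (1.83 to 1.89) in aged and 1.94 (1.91 to 1.96) in young. In both genes the CA libraries lay above the sham libraries at both ages, and aged and young values of 1 treatment differed by less than those of CA and sham.

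Fcgr2b, the inhibitory receptor, was higher after CA as well, with 321 CPM in aged CA, 222 CPM in aged sham, 281 CPM in young CA and 174 CPM in young sham. The ratio of CA to sham was 1.45 (1.41 to 1.49) in aged and 1.62 (1.58 to 1.65) in young. Summed UMIs of the 3 activating receptors exceeded those of Fcgr2b by 5.61-fold (5.52 to 5.70) in aged CA, 4.40-fold (4.28 to 4.52) in aged sham, 5.87-fold (5.79 to 5.95) in young CA and 4.80-fold (4.69 to 4.90) in young sham. The quotient of activating to inhibitory transcripts was thus higher in each CA library than in its sham, although the inhibitory transcript was itself higher. Capture of a 3′ end differs from gene to gene, so such quotients are read across libraries and not as a ratio of proteins.

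Fcer1g, the chain that the activating receptors need for signalling and for staying at the surface, reached 1667 CPM in aged CA, 1327 CPM in aged sham, 1847 CPM in young CA and 1057 CPM in young sham. The ratio of CA to sham was 1.26 (1.24 to 1.27) in aged and 1.75 (1.73 to 1.76) in young. Fcgrt stood at 66.6, 49.7, 71.2 and 54.3 CPM in the same order, with ratios of 1.34 (1.26 to 1.42) in aged and 1.31 (1.25 to 1.37) in young. Both genes were higher after CA at each age, by less than 2-fold.

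Fcrls went the other way. It stood at 313 CPM (308 to 318) in aged CA, 1064 CPM (1053 to 1076) in aged sham, 932 CPM (926 to 938) in young CA and 1362 CPM (1352 to 1371) in young sham. Aged CA was the lowest of the 4 libraries by a wide margin, with a ratio of CA to sham of 0.294 (0.288 to 0.30) in aged and 0.684 (0.678 to 0.691) in young. The summed level of Tmem119, P2ry12, Siglech and Sall1, identity genes of microglia that also served in the gate, moved alongside, at 2150 CPM in aged CA, 5239 CPM in aged sham, 3147 CPM in young CA and 5872 CPM in young sham. The microglia list was the highest in 389, 1166, 376 and 262 further cells of those libraries that the gate did not accept, and their part in the Fcrls result was not tested.

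Depth differed between libraries, so each cell was also thinned to 2000 UMIs, which left out 125, 1181, 425 and 639 microglia in the order aged CA, aged sham, young CA and young sham. In that order Fcgr4 was then seen in 11.1%, 2.87%, 14.6% and 2.0% of microglia (37.9%, 8.0%, 41.7% and 6.29% unthinned). In neurons, which should lack it, thinned shares were 0.725% in aged CA (1 of 138 cells) and 0 of 219, 0 of 78 and 0 of 97 cells in the others, which allow up to 1.37%, 3.85% and 3.09%, with 25, 208, 22 and 34 neurons left out (2.45%, 0.937%, 7.0% and 0.763% unthinned). Median depth before thinning was 10709, 4130.5, 9390.5 and 5808 UMIs in microglia and 26635, 2035, 20692 and 26662 UMIs in neurons. Fcgr4 was thus seen above the neuron share or its limit in both CA libraries and in aged sham, and under the limit in young sham.

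The other IgG receptors were seen in more cells after CA too. Fcgr3 was seen in 83.0% of thinned microglia in aged CA, 64.7% in aged sham, 78.6% in young CA and 57.6% in young sham, against 4.35%, 18.7%, 3.85% and 3.09% of neurons, and unthinned in 94.1%, 77.7%, 92.9% and 78.9% of microglia. A mean of 1.91, 1.45, 1.89 and 1.28 of the 4 IgG receptor genes was seen per thinned microglial cell in that order. No IgG receptor was seen in 5.45%, 15.4%, 6.39% and 20.2% of microglia, and an activating one together with Fcgr2b in 41.2%, 28.3%, 35.4% and 21.3%. Fcrls was seen in 38.5% of microglia in aged CA, 78.3% in aged sham, 65.9% in young CA and 86.7% in young sham, against 2.17%, 22.4%, 11.5% and 9.28% of neurons (71.1%, 84.9%, 85.0% and 94.1% of microglia unthinned).

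The second comparison asked how microglia differed with age. In sham, Fcgr2b was 1.28-fold (1.24 to 1.32), Fcgr3 1.21-fold (1.19 to 1.24), Fcer1g 1.25-fold (1.24 to 1.27) and Fcgr4 1.55-fold (1.37 to 1.75) higher in aged than in young microglia, and Fcrls was at 0.782 (0.772 to 0.792) of the young level. Of 7 members, 0 passed 2-fold in either direction, where 1.54% of 9160 genes were at least 2-fold higher in aged and 0.175% at least 2-fold lower. After CA, Fcgr2b and Fcgr3 were again higher in aged microglia, by 1.14-fold (1.12 to 1.17) and 1.17-fold (1.16 to 1.18). Fcgr4 and Fcer1g lay on the other side, at 0.671 (0.646 to 0.696) and 0.903 (0.895 to 0.910) of the young CA level. Fcrls was the 1 member at least 2-fold lower in aged CA than in young CA, at 0.336 (0.330 to 0.341), and 0 were at least 2-fold higher, where 2.68% and 1.8% of 9062 genes were. Fcgr1 differed little by age, with a ratio of 1.03 in CA and 1.07 in sham, and the CA value fell below 1 under 5 other ways of computing it, from 0.795 to 0.988.

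Microglia after CA held transcript states that shared cells, and the ratios of the members differed between the states. A cell was put in a state when at least 3 genes of its list were seen after thinning to 2000 UMIs, so the lists and not the members define the states. The interferon response state (Ifit1, Ifit3, Isg15, Rsad2 and 6 others) held 17.5% of microglia in aged CA, 1.59% in aged sham, 18.0% in young CA and 0.40% in young sham. Cells with 2 list genes seen, just under the limit, numbered 451 in aged CA and 1340 in young CA. In aged CA, Fcgr1 stood at 875 CPM inside the state and 373 CPM outside it, 2.34-fold (2.19 to 2.50), and in young CA at 653 and 425 CPM, 1.54-fold (1.46 to 1.62). Within aged sham, where 56 cells were in the state, Fcgr1 stood at 580 CPM inside and 297 CPM outside, 1.95-fold (1.5 to 2.5). Fcgr4 was 1.97-fold (1.63 to 2.36) and 1.38-fold (1.22 to 1.56) as high inside the state in aged and young CA. Fcgr3, the gene of the low-affinity activating receptor, stood at 0.696 (0.657 to 0.737) of the outside level in aged CA and 0.995 (0.956 to 1.04) in young CA. Fcer1g was higher inside the state in each library read, at 1.10 (1.05 to 1.15) in aged CA, 1.30 (1.11 to 1.51) in aged sham and 1.17 (1.13 to 1.21) in young CA.

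**Figure D2:**
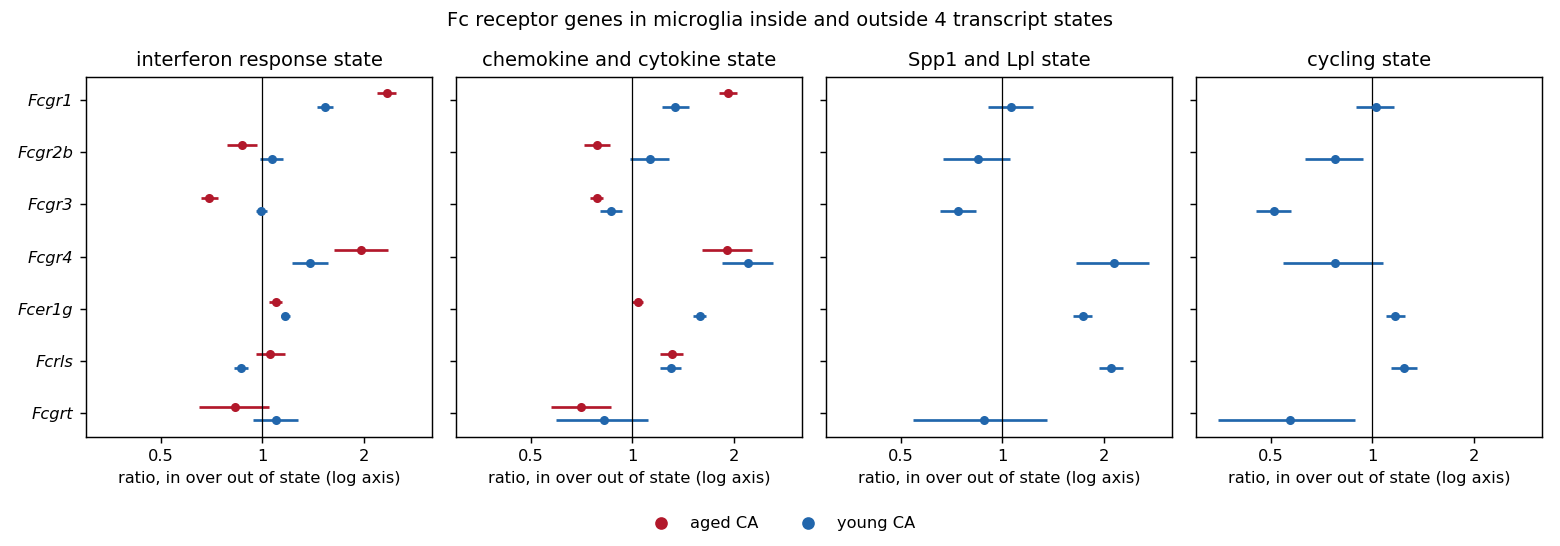
Ratio of each member's level inside to outside 4 transcript states among microglia thinned to 2000 UMIs, on a log axis, for aged CA (red) and young CA (blue), with exact 95% intervals for counting error; a state with under 50 cells in a library is not drawn. Fcgr1 lies right of 1 in the interferon response state at 2.34 in aged CA and 1.54 in young CA, and Fcgr3 lies left of 1 in the cycling state of young CA at 0.509.

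The chemokine and cytokine state (Ccl3, Ccl4, Tnf, Il1b, Cxcl10, Ccl2, Ccl12) held 28.4% of microglia in aged CA, 1.99% in aged sham, 4.99% in young CA and 0.414% in young sham. Cells just under its limit numbered 1021 in aged CA and 730 in young CA. Fcgr1 was 1.92-fold (1.81 to 2.05) as high inside the state in aged CA and 1.34-fold (1.22 to 1.47) in young CA, and Fcgr4 1.91-fold (1.61 to 2.26) and 2.20-fold (1.85 to 2.61). In aged CA this state held 1248 cells and the interferon response state 769, while 2828 of 4389 thinned microglia were in no state. Both states thus shared cells there. Shared cells were not set apart, so the higher Fcgr1 and Fcgr4 in both states of aged CA are not separate results. The 70 cells of aged sham in the chemokine and cytokine state had Fcgr1 at 0.898 (0.634 to 1.24) and Fcer1g at 1.39 (1.22 to 1.58) of the level outside it. Fcer1g differed between the libraries, at 1.04 (0.999 to 1.08) in aged CA and 1.59 (1.51 to 1.66) in young CA. In young CA, 176 microglia were in the Spp1 and Lpl state, a profile of phagocytic and lipid-handling genes, with 601 just under its limit. Inside the state Fcgr4 was 2.14-fold (1.66 to 2.74), Fcer1g 1.74-fold (1.63 to 1.85) and Fcrls 2.11-fold (1.94 to 2.29) as high as outside it. The 256 cycling microglia of young CA had 533 CPM of Fcgr3 against 1048 CPM outside, 0.509 (0.450 to 0.574), with Fcgr1 at 1.02 (0.897 to 1.16).

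Microglia of CA in none of these 4 states still differed from those of sham. Cells 1 gene short of a list's limit count as outside that state. All values here are from cells thinned to 2000 UMIs, so the partner values are those of all thinned microglia. Outside the states Fcgr1 stood at 337 CPM in 2828 aged CA cells and 298 CPM in 3377 aged sham cells, a ratio of 1.13 (1.06 to 1.20) beside 1.53 (1.45 to 1.61) in all thinned microglia, and at 424 CPM in 5923 young CA cells and 275 CPM in 6686 young sham cells, a ratio of 1.54 (1.48 to 1.61) beside 1.69 (1.63 to 1.76). Fcgr3 ratios were 2.08 (2.0 to 2.16) in aged, beside 1.91 (1.85 to 1.98), and 2.15 (2.08 to 2.21) in young, beside 2.11 (2.05 to 2.17). Fcgr4 ratios were 3.36 (2.68 to 4.25) in aged, beside 4.19 (3.41 to 5.19), and 7.88 (6.59 to 9.48) in young, beside 8.5 (7.17 to 10.1). Fcrls ratios were 0.25 (0.237 to 0.264) in aged, beside 0.275 (0.263 to 0.287), and 0.570 (0.556 to 0.585) in young, beside 0.581 (0.569 to 0.595). At both ages the ratios of Fcgr1 and Fcgr4 were nearer 1 outside the states than in all thinned microglia, and those of Fcgr3 and Fcrls were farther from it. The intervals lay apart for Fcgr1 at both ages, for Fcgr3 in aged mice and for Fcer1g in young mice. That Fcer1g ratio was 1.66 (1.62 to 1.70), beside 1.77 (1.74 to 1.81). The intervals overlapped for Fcgr2b, Fcgr4, Fcrls and Fcgrt at both ages, for Fcgr3 in young mice and for Fcer1g in aged mice. Little is read from those overlapping shifts. The cells outside the states are part of all thinned microglia.

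Microglia of CA and sham also sat mostly in different clusters of a joint clustering made without the members. In young mice, 6 clusters held at least 50 microglia of both libraries, with 54.1% of those of young CA and 96.5% of those of young sham, and in aged mice 3 clusters did, with 44.7% of those of aged CA and 5.91% of those of aged sham. Within the 6 young clusters the ratio of CA to sham was 0.860 to 1.18 for Fcer1g (above 1 in 3 clusters) and 1.19 to 1.99 for Fcgr3 (above 1 in 6), beside 1.75 and 1.94 over all microglia. Fcgr4 ratios were 2.35 to 5.0 in 5 of them, beside 10.6, and in the other Fcgr4 had 0 UMIs in 57 CA cells. Fcrls was below 1 in 5 of 6, at 0.341 to 1.13 over the 6. Within the 3 aged clusters Fcgr3 was at 1.77 to 2.06 and Fcrls at 0.252 to 0.398. Fcgr4 was there at 0.735 (0.378 to 1.63), 0.862 (0.605 to 1.24) and 6.58 (3.84 to 12.4), on 9, 50 and 13 UMIs in aged sham. The intervals of the ratios below 1 thus held 1.

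The third comparison set microglia beside the other classes. RNA of microglia was found in all classes, so each level is also given as a multiple of what microglial RNA would carry at the class's own level of Tmem119, P2ry12, Siglech and Sall1, where 1 means that such RNA alone would give the level. Neurons served as the class that should lack the members, and there the multiples lay between 0.484 and 1.83 for all members and libraries.

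**Figure D3:**
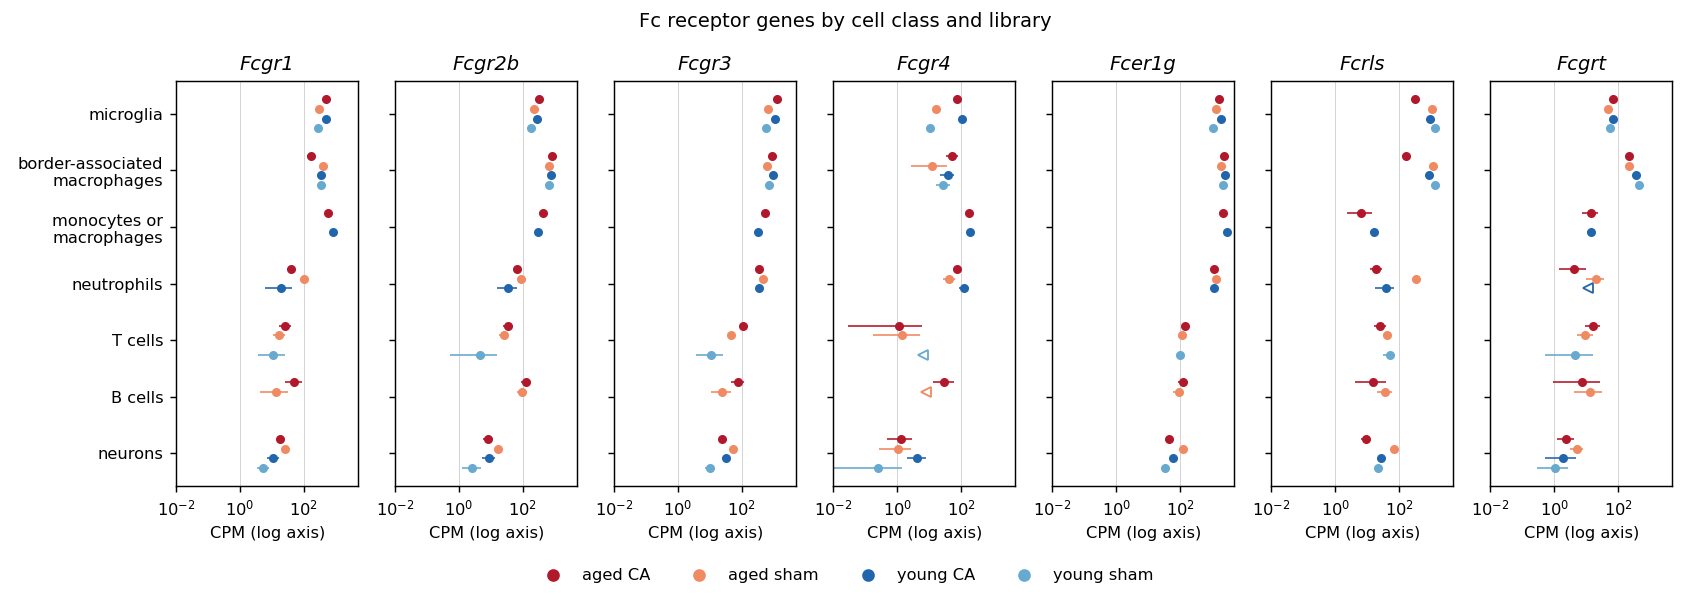
Levels of the 7 members in CPM on a log axis by cell class (rows) and library (colours, aged CA on top within a row), with exact Poisson 95% intervals; open triangles mark the limit that a count of 0 allows, and classes with under 20 cells in a library are not drawn. Fcgr2b and Fcgrt lie furthest right in border-associated macrophages, Fcgr4 in monocytes or macrophages of aged and young CA at 172 and 186 CPM, and Fcrls in microglia and border-associated macrophages.

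Border-associated macrophages, which line vessels and brain coverings, were 41 cells in aged CA, 22 in aged sham, 50 in young CA and 74 in young sham. Their levels of the inhibitory and the recycling receptor were the highest of any class described. Fcgr2b stood at 793, 647, 753 and 654 CPM in that order, 2.47-fold to 3.77-fold the level of microglia of the same library, and Fcgrt at 216, 226, 355 and 462 CPM, 3.24-fold to 8.5-fold. Fcer1g was also higher than in microglia in 4 of 4 libraries, by 1.36-fold to 2.07-fold. The quotient of activating to inhibitory UMIs was correspondingly low, at 1.35 (1.16 to 1.57) in aged CA, 1.57 (1.27 to 1.93) in aged sham, 1.75 (1.52 to 2.02) in young CA and 1.60 (1.42 to 1.82) in young sham.

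Among border-associated macrophages, Fcrls and Fcgr1 were lowest in aged CA. Fcrls stood at 159 CPM (121 to 205) in aged CA, 1154 CPM (1021 to 1300) in aged sham, 886 CPM (798 to 981) in young CA and 1332 CPM (1244 to 1424) in young sham, with intervals of aged CA and the other libraries apart. These are 2.49, 7.49, 5.98 and 7.75 times what microglial RNA would give. Fcgr1 stood at 162 CPM in aged CA, 392 CPM in aged sham, 350 CPM in young CA and 338 CPM in young sham, a ratio of CA to sham of 0.413 (0.293 to 0.578) in aged and 1.04 (0.835 to 1.28) in young, while microglia of aged CA had more Fcgr1 than those of aged sham. Of 7 members, 2 were at least 2-fold lower in aged CA than in aged sham border-associated macrophages, Fcgr1 and Fcrls, and 1 was higher, Fcgr4, with 20 against 3 UMIs (4.22, 1.25 to 22.2), where 11.3% of 5072 genes were lower and 11.1% higher. In young CA over young sham 0 were higher and 0 lower, against 4.27% and 5.47% of 7000 genes. With age, 2 members were at least 2-fold lower and 0 higher in aged CA than in young CA, Fcgr1 at 0.462 (0.336 to 0.628) and Fcrls at 0.180 (0.134 to 0.237), against 8.75% and 6.49% of 5921 genes. The sham libraries had 2 members at least 2-fold lower in aged mice and 0 higher, Fcgrt at 0.489 (0.358 to 0.656) and Fcgr4 on 3 against 18 UMIs (0.458, 0.0864 to 1.57), where 7.63% and 5.1% of 6370 genes were. With the stricter gate that limits the microglia list too, 2 cells of aged sham and 7 of young sham remained. Most sham cells behind the comparisons above thus carried many microglial markers. Only aged CA (21 cells) and young CA (20 cells) could be read with that gate. There Fcgr1 stood at 219.7 and 310.5 CPM, Fcrls at 195 and 859.8 CPM and Fcgr4 at 24.4 and 23.9 CPM. Fcrls was still at least 2-fold lower in aged CA than in young CA, while Fcgr1 no longer was.

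Monocytes or monocyte-derived macrophages had enough cells only after CA, 36 in aged and 183 in young, against 11 in aged sham and 8 in young sham. With the stricter gate 25 cells remained in aged CA and 40 in young CA, and the values below include the cells it left out. Fcgr1 reached 571 CPM (523 to 622) in aged CA and 831 CPM (802 to 862) in young CA, 1.16-fold (1.06 to 1.26) and 1.73-fold (1.66 to 1.79) the level of microglia of the same library. Fcgr4 stood at 172 CPM and 186 CPM, or 2.34-fold (1.98 to 2.74) and 1.69-fold (1.56 to 1.83). Fcgr3, in contrast, was lower than in microglia, with 513 and 317 CPM, or 0.416 (0.379 to 0.455) and 0.30 (0.283 to 0.319). Fcrls at 6.50 and 16.0 CPM was 0.474 (0.169 to 1.07) and 0.246 (0.185 to 0.322) of what microglial RNA alone would give, and Fcgrt stood at 14.1 CPM in both. Fcgr2b was at 1.28 (1.15 to 1.42) and 1.03 (0.963 to 1.09) times the level of microglia in aged and young CA. Monocytes or macrophages thus carried Fcgr1, Fcgr2b, Fcgr4 and Fcer1g (2135 and 2942 CPM), and Fcgr3 at a lower level than microglia. No Fcrls was seen in them above the level of microglial RNA.

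**Figure D4:**
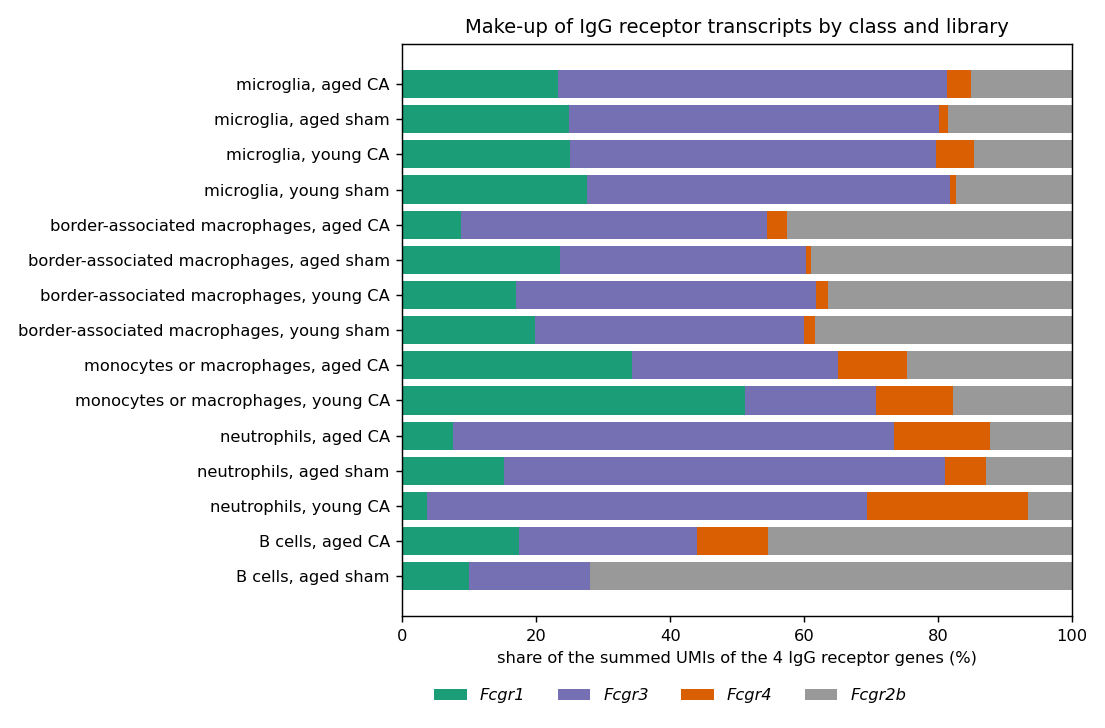
Share of each IgG receptor gene in the summed UMIs of the 4 genes, in percent. Drawn are microglia, border-associated macrophages, monocytes or macrophages, neutrophils and B cells in libraries with at least 20 cells of the class. Fcgr2b takes 36.4% to 42.6% in border-associated macrophages against 14.6% to 18.5% in microglia, Fcgr1 takes 34.2% and 51.2% in monocytes or macrophages of aged and young CA, and Fcgr4 takes up to 24.1% in neutrophils.

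Neutrophils, short-lived phagocytes of the blood, could be read in aged CA (74 cells), aged sham (174 cells) and young CA (27 cells). Of these, 58, 29 and 21 passed the stricter gate, so most of those of aged sham did not. Their median depth was 14623, 1439 and 9426 UMIs. Fcer1g at 1177, 1361 and 1157 CPM and Fcgr3 at 352, 451 and 339 CPM stood above the level that microglial RNA would give, by 7.35, 4.42 and 14.9 times for Fcer1g and 2.97, 2.93 and 7.66 times for Fcgr3. Fcgr4 was the member furthest above it, at 76.7, 42.2 and 124 CPM, or 10.8 (8.43 to 13.8), 11.4 (7.15 to 17.2) and 27.0 (16.3 to 44.8) times. Fcgr1 was at 40.5, 105 and 18.9 CPM, or 0.853 (0.612 to 1.17), 1.51 (1.13 to 1.98) and 0.934 (0.286 to 2.39) times, which is near that carried by microglial RNA. Fcgrt gave 5, 11 and 0 UMIs in those cells.

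Members were low in lymphocytes. In B cells, where FcγRIIB is the only classical IgG receptor, Fcgr2b stood at 129 CPM (34 UMIs in 32 cells) in aged CA and 94.8 CPM (36 UMIs in 40 cells) in aged sham, 7.11 (4.26 to 11.9) and 8.75 (5.8 to 13) times the level that microglial RNA would give. The activating Fcgr3 was at 1.09 (0.590 to 1.96) and 0.734 (0.326 to 1.45) times and Fcer1g at 1.29 (0.765 to 2.17) and 1.38 (0.908 to 2.07) times in the same cells. Fcgr4 had 8 UMIs in aged CA B cells, 7.3 (2.91 to 16.2) times that level, and 0 in aged sham ones, where a count of 0 allows up to 3 UMIs. In T cells Fcgr1 stood at 25.5, 16.6 and 10.9 CPM in aged CA, aged sham and young sham, or 1.07, 1.42 and 0.853 times the microglial RNA level, and Fcer1g at 141, 111 and 103 CPM, or 1.74, 2.14 and 2.11 times. Fcgrt had 15, 13 and 2 UMIs in those T cells, or 5.15 (2.77 to 8.94), 4.83 (2.54 to 8.39) and 1.74 (0.209 to 6.43) times.

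Genes that act with the receptors were counted in the same way, beside the 6.1% higher and 7.38% lower of all genes in aged mice and the 5.58% and 2.5% in young mice given above. Of 16 genes of activating signalling below Fc receptors, 15 were measured in microglia, with 1 at least 2-fold higher and 1 at least 2-fold lower after CA in aged mice and 1 higher and 0 lower in young mice, a share near that of all genes. The higher gene was Fgr, a Src-family kinase, at 78.4 CPM in aged CA, 18.1 CPM in aged sham, 39.6 CPM in young CA and 9.94 CPM in young sham, 4.33-fold (3.96 to 4.75) in aged and 3.99-fold (3.65 to 4.37) in young. The lower gene in aged mice was Blnk, an adaptor below Syk, at 179.5 CPM in aged CA, 392 CPM in aged sham, 247 CPM in young CA and 378 CPM in young sham, with a ratio of 0.458 (0.446 to 0.471) in aged and 0.653 (0.640 to 0.665) in young. Lyn, a Src-family kinase that phosphorylates the receptor motifs, stood at 1355, 1405, 1201 and 1339.6 CPM in the same order of libraries, and the phospholipase Plcg2 at 296, 296, 323 and 313 CPM. The median log2 ratio of the list was 0.14 in aged and -0.08 in young, beside 0.04 and -0.06 over all genes tested.

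Of 8 genes of inhibitory signalling, 7 were measured and 0 passed 2-fold after CA at either age, a list too short to set apart from the 2.5% to 7.38% of all genes, with a median log2 ratio of 0.04 in aged and 0.01 in young. Inpp5d, the phosphatase SHIP that FcγRIIB recruits, stood at 1512 CPM in aged CA, 1472 CPM in aged sham, 1745 CPM in young CA and 1703 CPM in young sham. Tyrobp, the other immunoreceptor adaptor of myeloid cells, stood at 1822, 1575, 2006 and 1241 CPM in that order, with ratios of CA to sham of 1.16 (1.14 to 1.17) in aged and 1.62 (1.60 to 1.63) in young, near those of Fcer1g. Among 9 other receptors reported to pair with the γ chain, 1 was measured in aged mice, Clec4a1, at 32.1 CPM in aged CA and 4.88 CPM in aged sham (6.57, 5.55 to 7.83), and 0 in young.

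Other receptors for immunoglobulin were scarce in microglia. Of 12 such genes, 2 were measured in aged mice and 1 in young, and 0 passed 2-fold after CA, from which nothing is read beside the shares of all genes. Fcrl1, an Fc receptor-like gene known from B cells, stood at 46.3, 48.3, 36.4 and 40.5 CPM in aged CA, aged sham, young CA and young sham. The cytosolic antibody receptor Trim21 stood at 14.1, 8.42, 10.7 and 8.03 CPM in the same order. The IgE receptor α chain Fcer1a, picked after its values were seen, a marker of mast cells and basophils that pairs with the γ chain there, had 0 UMIs in microglia of 4 of 4 libraries.

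Across 25 sums of a class in a library, the genes with the pattern most like each member, out of 14981 compared, were found by Pearson's r of log2(CPM + 1). The sums share libraries and depth, so these values are a description. Fcer1g was most like Tyrobp (r = 0.989), followed by Atp6v0c and Rab32. Fcgr3 was most like Cd14 (0.966), Nlrp3 and Tyrobp, Fcgr1 most like C3ar1 (0.954), Tmem86a and Ctss, and Fcgr2b most like Laptm4a (0.960), Ctsh and Rassf4. Fcgr4 was most like Arl11 (0.913), Tlr13 and Pik3r6, Fcrls most like Gpr34 (0.944), 2610203C22Rik and P2ry13, and Fcgrt most like Ang (0.925), with Tmem176b also among its 3 most alike genes. Gpr34 and P2ry13 served in the gate of microglia, so their likeness to Fcrls is not independent of the gate. Among the members, Fcgr3 and Fcer1g were the most alike pair (0.951) and Fcgr4 and Fcrls the least (0.189).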

How the data were processed

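The deposited files give raw counts of UMIs for each gene in each barcode, which the authors produced in Cell Ranger 7.1.0 with mm10, per the submitters' processing notes and the file headers; cell calling settings are not given in the sources used here. Libraries held 70924569 (aged CA), 44277472 (aged sham), 115892682 (young CA) and 72648041 (young sham) UMIs in 6794, 7700, 10794 and 9038 barcodes. Barcodes were kept with at least 500 UMIs, 200 genes and at most 10% mitochondrial UMIs (902, 162, 663 and 308 removed). Scrublet's automatic threshold marked 0, 1, 0 and 0 doublets, so the highest scores were removed at 0.8% per 1000 cells (294, 507, 889 and 703). A cell entered a class when at least 3 markers of its list were seen, that list had the highest share of markers seen, and no other list exceeded 0.5 of that share. For classes other than microglia this limit was not applied to the microglia list, a choice made after the gated cells had been counted, because few passed with it. UMIs of the cells in a class were added up within each library and expressed as CPM, with exact Poisson intervals, and with exact conditional binomial intervals for ratios. No test was possible with 1 library a group, and called means 2-fold or more among genes of at least 10 CPM (mean of the 2 libraries) with at least 20 UMIs. Classes under 20 cells were not read. Named were all members, at most 4 genes of a list by level, list genes past 2-fold where these were 5 or fewer, and 3 most alike genes a member, 1 of which is not reported here. The ratio procedure was tested on simulated data. The members and lists were chosen with earlier results of these data known. Tools were Python 3.11.15, scanpy 1.11.5 and edgeR 4.0.16. Gene positions came from GENCODE on GRCm38 and promoters from RefSeq.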

Additional observations from a re-analysis of the deposited data

Results flagged for a closer look

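Age differences of 2 members in microglia pointed in opposite directions after CA and in sham, and the difference between these age effects was not tested, since each group was 1 library. Fcgr4 stood at 0.671 of the young level in aged CA (73.6 against 109.8 CPM) and at 1.55 times the young level in aged sham (16.0 against 10.3 CPM). Fcer1g stood at 0.903 of the young level in aged CA (1667 against 1847 CPM) and at 1.25 times the young level in aged sham (1327 against 1057 CPM). The aged sham library, on which both sham values rest, was the shallowest of the 4, with 4130.5 UMIs per microglial cell against 5808 in young sham. Over all ways of computing them that were tried, the Fcgr4 ratio ranged from 0.626 to 0.793 in CA and from 1.42 to 1.75 in sham, and the Fcer1g ratio from 0.860 to 0.990 and from 1.20 to 1.38.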

How the results depend on the processing

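No paired analysis was possible because each group was 1 library. The count of members at least 2-fold higher in microglia became 2 in young CA over young sham with TMM scaling, with a mean over cells or with all microglia thinned, and 2 at both ages among microglia in none of the 4 states, where Fcgr3 passed 2-fold. TMM scaling moved all log2 ratios by 0.10 in aged and 0.18 in young CA over sham, -0.07 in aged over young CA and 0.01 in sham. Reversed ratios were those of Fcgr1 in aged over young CA, at 0.977 with TMM scaling, 0.966 with a mean over cells, 0.988 thinned, 0.958 without cells that carried a monocyte marker and 0.795 outside the 4 states, and of Fcgrt in the same comparison, at 1.03 outside the states. Thinning, the marker-free cells and the cells outside the states were chosen after seeing the data. The other counts were the same under the marker, cluster, mitochondrial, depth and doublet alternatives. Percentages of all genes past the fold moved in 8 of 8 cases with a fold of 1.5 or genes from 1 CPM. With the limit of 0.5 applied to all lists, 59 of 126 class levels left their intervals. Shares of cells moved in 28 of 28 cases at another depth.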

Other observations

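Levels of the members also varied among clusters within 1 library. Among clusters with at least 50 young CA microglia, Fcgr3 stood between 511 and 1603 CPM and Fcer1g between 637 and 2789 CPM. The cluster lowest in both, with 365 cells and a median of 3553 UMIs, had 26641 CPM of Malat1, while the cluster highest in Fcer1g, with 546 cells and a median of 17421 UMIs, had 9655 CPM. Fcgr4 stood at 31.4 CPM in that low cluster and at 230 CPM in that high one.

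Among immunoglobulin chains, the ligand side of the receptors, the IgG heavy chains Ighg1, Ighg2c and Ighg3 had 0 UMIs in microglia of 4 of 4 libraries, and Ighg2b stood at 0.236 CPM in aged CA, 0.231 CPM in aged sham, 0.172 CPM in young CA and 0.160 CPM in young sham. Ighm, the heavy chain of IgM, stood at 88.3 CPM in aged CA, 132 CPM in aged sham, 85.6 CPM in young CA and 158 CPM in young sham microglia. Igkc stood at 96.3 CPM in aged CA, 6.70 CPM in aged sham, 0.0687 CPM in young CA and 0.730 CPM in young sham. Of 4902 Igkc UMIs in aged CA microglia, 4405 were in 1 cell.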
